A study of Mus musculus with 25 samples.

Results

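The natriuretic peptide genes of the heart were followed together with the enzymes that process the peptides and the receptors that bind them, in RNA sequencing of 25 mouse hearts. The 8 genes were chosen by name: the peptides Nppa, Nppb and Nppc, the proteases Corin and Furin, and the receptors Npr1, Npr2 and Npr3. All 8 had a row among the 56941 genes of the count table, and 7 of them were among the 17682 genes with enough reads to test. Nppc did not pass the filter on low counts.

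The study gave agonists that cause myocardial hypertrophy, named Ang/PE, to control mice and to mice labelled MCT1KO, and its question was how lactate is handled in that state. MCT1 is a carrier of lactate and pyruvate encoded by Slc16a1. Without a pump there were 4 WT hearts and 3 hearts labelled MCT1KO. With a saline pump there were 6 WT hearts and 4 labelled MCT1KO, and with Ang/PE there were 3 WT hearts and 5 labelled MCT1KO. The labels do not give the strain, sex, age, dose or infusion time, nor the promoter or Cre line behind the deletion. They also do not say which part of the heart was taken, and beyond the number of hearts they do not say that each library is a separate animal, so p-values measure the spread between these libraries.

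Atrial natriuretic peptide (Nppa) and B-type natriuretic peptide (Nppb) are hormones that heart muscle releases when it is stretched. Their precursors are cut by the proteases corin, for the atrial peptide, and furin, for the B-type peptide. Both hormones bind the receptor guanylyl cyclase Npr1, which makes the second messenger cGMP and lowers blood pressure. C-type natriuretic peptide (Nppc) acts through the second guanylyl cyclase, Npr2, and Npr3 is the clearance receptor that takes the peptides out of the circulation. In the adult heart Nppa is abundant in the atria and low in the healthy ventricle, and both peptide genes are textbook markers of ventricular overload.

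Library depth ran from 12216704 to 24880683 counts. The gene named by the knockout label, Slc16a1, lay between 150.3 and 249.0 CPM (read counts scaled to a common library size) in the WT hearts and between 132 and 223 CPM in those labelled MCT1KO. By edgeR's quasi-likelihood test with Benjamini-Hochberg adjustment its log2 difference (labelled MCT1KO minus WT) was -0.02 without a pump (adjusted p = 0.976), -0.33 with saline (adjusted p = 0.219) and -0.18 with Ang/PE (adjusted p = 0.807). The libraries are therefore named by their labels throughout. Atrial muscle markers set the saline hearts apart: the summed CPM of 8 such genes was 145 to 1797 in WT saline and 122 to 4972 in saline hearts labelled MCT1KO, against 89.8 to 171 in the other 15 hearts. Summed fat genes reached 53.5 and 1461 CPM in the same saline groups and at most 18.3 CPM elsewhere. Xist, which marks female cells, was 547.7 to 759 CPM in 2 of 4 and 0 of 3 hearts without a pump, 1 of 6 and 3 of 4 saline hearts, and 3 of 3 and 4 of 5 Ang/PE hearts, with WT named first in each pair, and at most 0.536 CPM in the rest. By this marker sex was spread unevenly over the groups, so it cannot be fully told apart from treatment or genotype.

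The promoters of the peptide genes are shown because Nppa and Nppb lie side by side on chromosome 4. As described further on, their levels had a rank correlation near 0 over all hearts, with the saline hearts included. Outside saline, the heart highest in Nppa was also highest in Nppb in every group but the MCT1KO label without a pump. The value near 0 therefore does not show that these neighbouring genes vary independently. Each line holds the 250 bases before the RefSeq transcription start in GRCm38.p6, on the + strand, at chr4:148000472-148000721 for Nppa and chr4:147985650-147985899 for Nppb. Capitals mark matches to the motifs described after them.
Nppa: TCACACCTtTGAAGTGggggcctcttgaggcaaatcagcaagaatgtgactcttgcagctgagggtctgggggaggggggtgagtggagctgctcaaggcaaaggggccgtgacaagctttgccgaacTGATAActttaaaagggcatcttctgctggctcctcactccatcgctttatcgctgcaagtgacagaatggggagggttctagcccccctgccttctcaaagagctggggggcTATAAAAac
Nppb: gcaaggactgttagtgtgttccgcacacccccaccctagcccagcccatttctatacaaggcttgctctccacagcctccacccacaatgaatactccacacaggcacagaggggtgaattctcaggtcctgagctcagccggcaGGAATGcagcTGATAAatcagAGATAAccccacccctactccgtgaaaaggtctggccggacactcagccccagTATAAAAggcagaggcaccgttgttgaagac
All 8 genes had an entry in the RefSeq promoter table. The Nppa stretch held a T-box element (TCACACCT, -250 to -243 from the start, the reverse strand of AGGTGTGA), an NK2 element (TGAAGTG, -241 to -235), a GATA site (TGATAA, -122 to -117) and a TATA box (TATAAAA, -9 to -3). The Nppb stretch held an MCAT site, the motif of TEAD factors (GGAATG, -105 to -100), a pair of GATA sites (TGATAA, -95 to -90, and AGATAA, -84 to -79) and a TATA box (-31 to -25). The motifs searched were GATA (these letters after A or T and before A or G), NK2 (AAGTG after T and any letter but A), the T-box element, MCAT, AP-1 (TGACTCA), the CArG box and the MEF2 site on both strands, and TATAAAA on the gene's own strand. Among 32851 promoter windows of this length, 26.5% held a GATA match, 12.6% MCAT, 7.77% NK2, 4.46% AP-1, 3.02% TATAAAA, 1.47% a CArG box, 1.12% the T-box element and 0.508% a MEF2 site. No AP-1, CArG or MEF2 match lay in the windows of the 8 genes. These letters are descriptions of the sequence, and no binding was measured.

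Each gene was tested in 12 comparisons with edgeR's quasi-likelihood test, and a gene was called at a Benjamini-Hochberg adjusted p below 0.05 over all 17682 genes. The comparisons share groups of hearts, so they are not independent of each other. Where all hearts of 1 group are said to lie above or below all of another, this describes the values only. The share of all genes that separate in this way was not computed, and groups this small can separate by chance. Of the 84 values for the 7 tested genes, 1 was called: Npr2, the receptor for C-type peptide, rose in WT hearts with a saline pump against WT hearts without one. That is 1 of 7 genes, where 6.61% of all genes were called, with 3 members (Nppa, Nppb and Npr2) at an unadjusted p below 0.05, where 24.3% of all genes were. DESeq2 called 2 (Nppa and Npr2), and 1956 of all genes.

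Under the MCT1KO label, the step from saline to Ang/PE gave 0 of 7 against a background of 4.46%, with 3 genes (Nppb, Npr1 and Npr3) at an unadjusted p below 0.05 by edgeR, where 20.4% of all genes were. DESeq2 called 2 (Npr1 and Npr3), and 1200 of all genes. The same step in WT hearts gave 0 of 7, where 0.017% of all genes were called, with 2 (Nppb and Npr2) unadjusted beside 19.1% of all genes, and 0 by DESeq2 beside 649 genes. Saline against no pump in hearts labelled MCT1KO gave 0 of 7 against 0.00566%, with 3 unadjusted (Nppa, Npr1 and Npr3) beside 12.1% of all genes, and 1 by DESeq2 (Npr3) beside 212 genes. For Ang/PE against no pump the counts were 0 of 7 in WT (background 0%, 0 unadjusted beside 9.02% of all genes, 0 by DESeq2 beside 35 genes) and 0 of 7 in hearts labelled MCT1KO (background 0.503%, 2 unadjusted, Nppa and Nppb, beside 13.1% of all genes, and 0 by DESeq2 beside 395 genes).

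The genotype comparisons by edgeR called 0 of 7 in each treatment, and DESeq2 likewise called 0, beside 104, 145 and 4 of all genes without a pump, with saline and with Ang/PE. The background was 0% without a pump, 0% with saline and 0% with Ang/PE, and the only unadjusted p below 0.05 among the members was that of Nppa under Ang/PE, where 6.92% of all genes had one, as did 12.2% without a pump and 17% with saline. The 3 interactions, which ask whether the genotypes respond differently, also called 0 of 7 by edgeR and 0 by DESeq2. Their background was 0% for Ang/PE against saline (0 members unadjusted, beside 13.5% of all genes), 0.00566% for the saline pump (2 unadjusted, Npr2 and Npr3, beside 17.2% of all genes) and 0% for Ang/PE against no pump (0 unadjusted, beside 5.43%). DESeq2 called 11, 369 and 2 of all genes in these interactions.

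Nppa varied more than nearly any other gene of these hearts. Without a pump it stood at 89.3, 72.7, 130.5 and 58.6 CPM in the 4 WT hearts and at 60.9, 20.4 and 462 CPM in the 3 labelled MCT1KO. With saline the 6 WT hearts ran from 44.5 CPM through a median of 714 CPM to 1459 CPM, and the 4 labelled MCT1KO held 1689, 1366, 62.6 and 3706 CPM. In WT 4 of 6 saline hearts lay above all hearts without a pump, and under the MCT1KO label 3 of 4 did, so the groups overlapped. Under Ang/PE Nppa stood at 156.8, 151.5 and 315 CPM in the WT hearts and at 359, 5144, 313, 491 and 1759 CPM in those labelled MCT1KO. All 3 WT Ang/PE hearts lay above all 4 WT hearts without a pump, and the highest value of the series belonged to 1 Ang/PE heart labelled MCT1KO.

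The fitted log2 difference of Nppa (saline minus no pump) was 2.93 with a standard error of 1.17 in WT (edgeR adjusted p = 0.13) and 3.24 with a standard error of 1.38 in hearts labelled MCT1KO (edgeR adjusted p = 0.35). For Ang/PE minus no pump it was 1.24, standard error 1.22, in WT (edgeR adjusted p = 0.807) and 3.16, standard error 1.35, in hearts labelled MCT1KO (edgeR adjusted p = 0.311). The second of these stands for 8.91-fold, in a group whose hearts differed 16.4-fold among themselves. Without Ang/PE replicate 2 labelled MCT1KO this value was 2.01, and without no-pump replicate 3 of that label 5.30. The saline minus no pump value of that label ran from 2.52 without saline replicate 4 to 5.39 without no-pump replicate 3. For Ang/PE minus saline it was -1.69 in WT (edgeR adjusted p = 0.473) and -0.08 in hearts labelled MCT1KO (edgeR adjusted p = 0.979). The genotype difference under Ang/PE was 2.96 with a 95% interval of 0.16 to 5.75 (edgeR adjusted p = 0.711). None of the Nppa differences passed by edgeR, while DESeq2 called saline minus no pump in WT (DESeq2 adjusted p = 0.013). The exons of Nppa overlap those of an antisense gene, Gm13054, over 61.5% of their length, and the sources used here do not give whether the counting used strand; Gm13054 itself had 1 to 71 counts per heart.

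**Figure D1:**
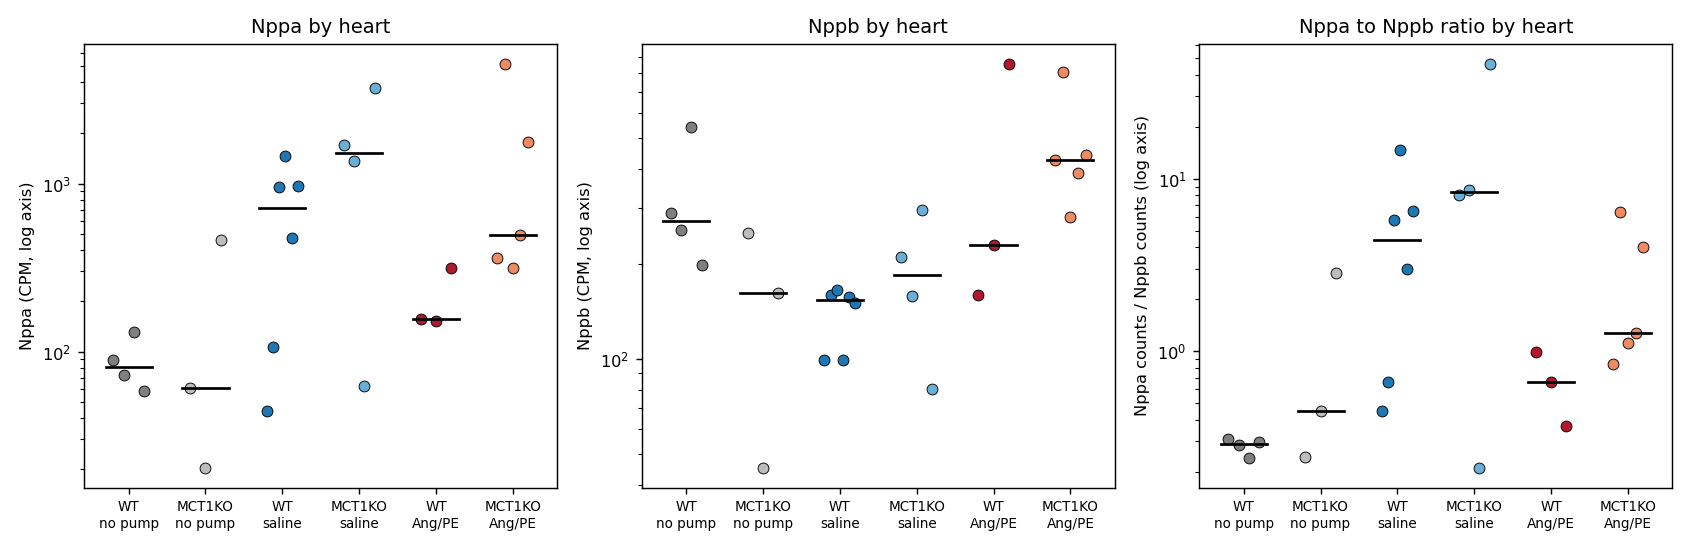
Nppa and Nppb in CPM and the ratio of their counts, 1 point per heart on log axes, by group, with a bar at each group's median. In Nppa 4 of 6 WT saline hearts and 3 of 4 saline hearts labelled MCT1KO stand above 462 CPM; Nppb lies at or below 166 CPM in all WT saline hearts; the ratio is 0.241 to 0.308 in WT hearts without a pump and up to 46.2 with saline.

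Atrial markers moved with Nppa in the saline hearts. Myl7, an atrial myosin light chain, was at most 0.785 CPM in all hearts without a pump or with Ang/PE. In the WT saline hearts it was 0.465, 4.58, 130.7, 379, 50.1 and 178 CPM, and in the saline hearts labelled MCT1KO 237, 244, 0 and 1357 CPM. Myl4, Myl7, Sln and the ventricular gene Myl2 are named here after their values were seen. The 2 saline hearts with the lowest Myl7 and Myl4, another atrial light chain, were those with Nppa at 44.5 and 62.6 CPM. Of the 8 atrial genes, 4 rose in saline against no pump in WT and 7 fell with Ang/PE against saline under the MCT1KO label, by edgeR at an adjusted p below 0.05, where 6.61% and 4.46% of all genes were called. The same steps in the other genotype called 0 of 8 each, beside 0.00566% and 0.017% of all genes. Unadjusted there were 8 for saline against no pump under the MCT1KO label and 5 for Ang/PE against saline in WT, beside 12.1% and 19.1% of all genes. These calls were not checked without single hearts. Sln, which encodes an atrial calcium pump inhibitor, was at 0 in all 4 WT hearts without a pump and reached 348 CPM in a saline heart. The part of atrial RNA in the Nppa values of the saline hearts was not tested, and in bulk RNA fewer cells of a type and less RNA per cell cannot be told apart. An atrial score, the mean log2 level of Myl4, Myl7 and Sln, was used as a covariate. With it the Nppa difference of saline against no pump turned to -1.30 in WT (edgeR adjusted p = 0.632) and -1.70 in hearts labelled MCT1KO. That of Ang/PE against saline turned to 2.35 in WT (edgeR adjusted p = 0.471) and 4.31 in hearts labelled MCT1KO (edgeR adjusted p = 0.404). None of these values passed. The score was high only in saline hearts, so it can hardly be separated from the saline groups.

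In the Ang/PE hearts Nppa stood at 151.5 to 5144 CPM while atrial markers were low. In the Ang/PE heart labelled MCT1KO with 5144 CPM of Nppa, Myl7 was 0.279 CPM, Sln 0 CPM and Myl4 5.45 CPM. Its Myl4 and Myl7 were the highest of its group, while its summed atrial list, at 122 CPM, was the lowest. With all 10 saline hearts left out of the model, an alternative chosen after seeing the data, the difference of Ang/PE against no pump in hearts labelled MCT1KO was 3.15 (edgeR adjusted p = 0.307), close to the value with them. That difference rests on the means of its own groups. Leaving out saline hearts could change only the filter, the scaling and the estimate of spread, so the closeness carries no information on atrial RNA.

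**Figure D2:**
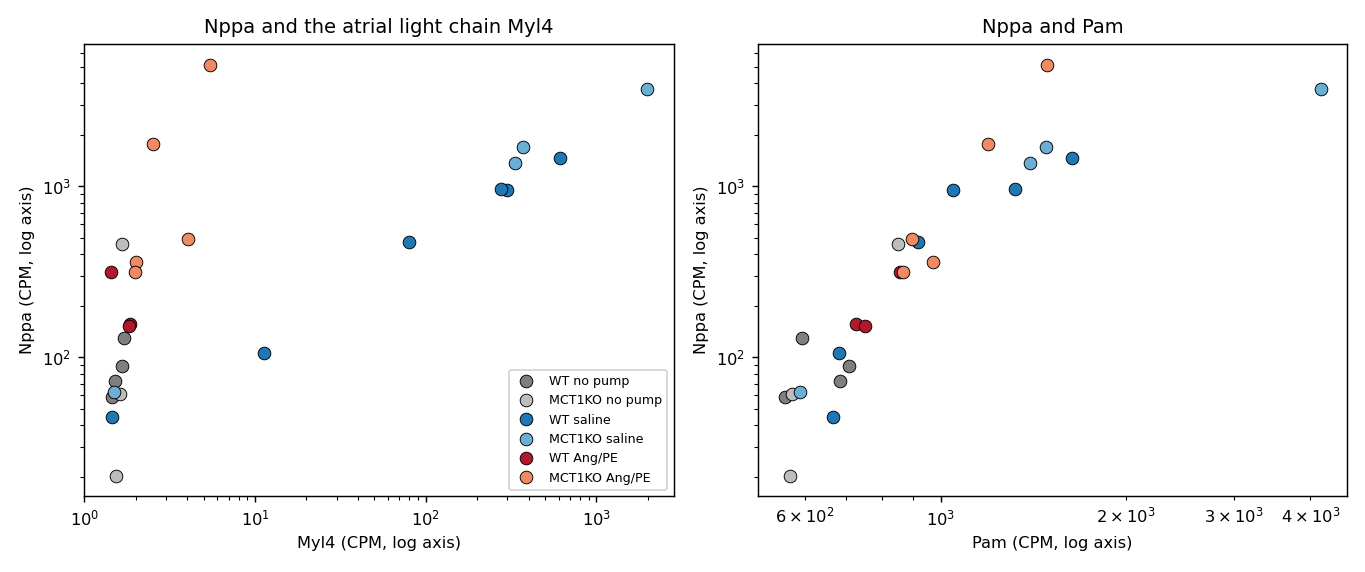
Nppa against the atrial light chain Myl4 (left) and against Pam (right), in CPM on log axes, 1 point per heart, coloured by group. Saline hearts with Myl4 above 80 CPM extend to the right at high Nppa, while the Ang/PE heart with the highest Nppa (5144 CPM) has 5.45 CPM of Myl4; against Pam the hearts of all groups fall along 1 band.

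Nppb, the B-type peptide gene, kept a different order of groups. Without a pump it stood at 290.0, 256, 541 and 198 CPM in WT hearts and at 249.8, 45.3 and 162 CPM in those labelled MCT1KO. With saline the WT hearts ran from 99.1 CPM through a median of 153 CPM to 166 CPM, all below the 4 WT hearts without a pump, and those labelled MCT1KO held 210.3, 158.5, 296.5 and 80.2 CPM. Under Ang/PE it was 159, 229 and 855 CPM in WT hearts and 425, 805, 281, 388 and 441 CPM in those labelled MCT1KO. Every Ang/PE heart labelled MCT1KO therefore lay above every heart of that label without a pump, while 1 of the 3 WT Ang/PE hearts stood far above the other two.

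The log2 difference of Nppb for Ang/PE minus saline was 1.58 with a standard error of 0.503 in WT hearts (edgeR adjusted p = 0.112) and 1.33 with a standard error of 0.512 in hearts labelled MCT1KO (edgeR adjusted p = 0.144). Without WT Ang/PE replicate 3 the WT value was 0.50. For Ang/PE minus no pump it was 0.37 in WT (edgeR adjusted p = 0.89) and 1.62 with a standard error of 0.576 in hearts labelled MCT1KO (edgeR adjusted p = 0.213). For saline minus no pump it was -1.21 with a standard error of 0.471 in WT (edgeR adjusted p = 0.118) and 0.29 in hearts labelled MCT1KO (edgeR adjusted p = 0.89), and the interaction for that step was 1.504 (edgeR adjusted p = 0.306). None of these passed in the fit of all groups. With only the groups compared, saline minus no pump in WT was called (edgeR adjusted p = 0.0174). The difference between genotypes was -1.08 without a pump (edgeR adjusted p = 0.46), 0.43 with saline (edgeR adjusted p = 0.672) and 0.18 with Ang/PE (edgeR adjusted p = 0.964). The last value ran from -0.21 without WT Ang/PE replicate 1 to 1.26 without WT Ang/PE replicate 3.

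The ratio of Nppa to Nppb counts in a heart does not depend on library size. It was 0.308, 0.285, 0.241 and 0.296 in the WT hearts without a pump, a narrow range, and 0.244, 0.45 and 2.85 in those labelled MCT1KO. In the WT saline hearts it was 0.448, 0.666, 5.76, 14.7, 3.01 and 6.47, all above the WT hearts without a pump. The mean log2 ratio was 3.32 higher there by an exact two-sided permutation test (p = 0.00952, the smallest that 6 against 4 hearts allow, and 0.171 after Benjamini-Hochberg adjustment over 18 ratio tests). In the saline hearts labelled MCT1KO it was 8.03, 8.62, 0.211 and 46.2. Under Ang/PE it was 0.987, 0.663 and 0.368 in WT and 0.843, 6.39, 1.11, 1.27 and 3.99 in hearts labelled MCT1KO. All WT Ang/PE hearts lay above the WT hearts without a pump (log2 difference 1.15, exact p = 0.0571, the smallest possible for 3 against 4, adjusted 0.257). None of the 18 ratio tests passed after adjustment. Over the 25 hearts the levels of Nppa and Nppb had a Spearman correlation of 0.0377, and a Pearson r of 0.179 after subtraction of group means. The points are values from the same 25 libraries in 6 groups. They include the saline hearts, where the heart with 3706 CPM of Nppa held 80.2 CPM of Nppb. Outside saline, the heart highest in Nppa was also highest in Nppb in WT without a pump and in both Ang/PE groups. This did not hold for hearts labelled MCT1KO without a pump. A correlation without the saline hearts was not computed, so the value over the 25 hearts does not describe the hearts outside saline.

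Nppc, the C-type peptide gene, was close to undetected. It had 1 count in 10 of the 25 hearts and 0 counts in the other 15, 10 counts in all, so its level could not be compared between groups at this depth. A count of 0 allows up to 3 counts in a library.

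Corin and Furin, which cut the peptide precursors, showed no called difference in any comparison by edgeR or DESeq2. Corin stood between 225 and 403 CPM over the 25 hearts, with group means of 306 ± 31.7 (SD, n = 4) for WT and 288 ± 11.8 (n = 3) for the MCT1KO label when no pump was fitted, 346 ± 37.8 (n = 6) and 312 ± 17.1 (n = 4) with saline, and 321 ± 17.4 (n = 3) and 292 ± 51.2 (n = 5) with Ang/PE. Furin stood between 129 and 225 CPM, with group means from 151.4 ± 11.6 (n = 3) for the MCT1KO label with no pump to 174.6 ± 34.8 (n = 5) in the same label under Ang/PE. Over the 12 comparisons the log2 differences ran from -0.15 to 0.18 for Corin and from -0.14 to 0.21 for Furin, and none had an unadjusted p below 0.05 by edgeR. The 95% interval of the largest genotype difference of Corin, with saline, was -0.37 to 0.07. For Furin in Ang/PE minus no pump in hearts labelled MCT1KO it was -0.06 to 0.47. The widest spread of both genes was in the Ang/PE hearts labelled MCT1KO, where the heart with the lowest Corin (225 CPM) was also the one with the highest Nppa.

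**Figure D3:**
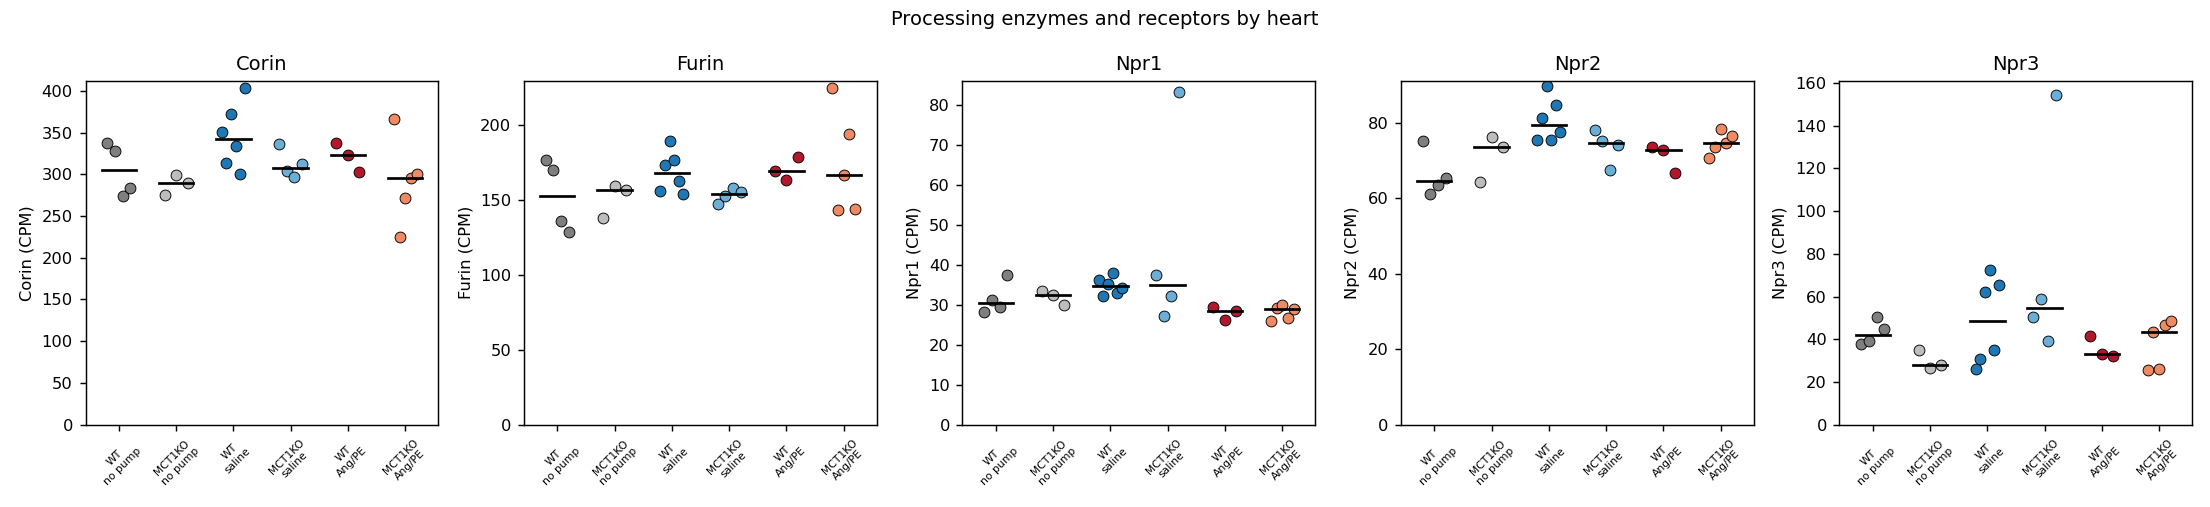
Corin, Furin, Npr1, Npr2 and Npr3 in CPM, 1 point per heart by group, with a bar at each group's median. Npr2 forms a narrow band in every group. Corin and Furin spread most in the Ang/PE hearts labelled MCT1KO (225 to 366 and 143 to 225 CPM). A saline heart labelled MCT1KO stands apart at 83.1 CPM of Npr1 and 154.5 CPM of Npr3.

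Npr1, the guanylyl cyclase receptor of both cardiac hormones, stood at 28.1, 31.3, 29.3 and 37.5 CPM in WT and 33.5, 32.4 and 30.0 CPM in hearts labelled MCT1KO without a pump. With saline it ran from 32.1 CPM through a median of 34.7 CPM to 37.9 CPM in WT, and was 37.5, 27.2, 32.2 and 83.1 CPM in hearts labelled MCT1KO. Under Ang/PE it was 29.3, 26.1 and 28.4 CPM in WT, all below the WT saline hearts, and 26.0 to 30.0 CPM in the 5 labelled MCT1KO. The 2 Ang/PE groups had the lowest means, 27.9 and 28.2 CPM, although 1 saline heart labelled MCT1KO, at 27.2 CPM, lay among them. The log2 difference of Ang/PE minus saline was -0.68 with a standard error of 0.199 in hearts labelled MCT1KO (edgeR adjusted p = 0.0538) and -0.32 with a standard error of 0.214 in WT (edgeR adjusted p = 0.433). Without each heart in turn the first of these ran from -0.86 to -0.20, the latter without saline replicate 4 of that label, with edgeR adjusted p from 0.0145 to 0.372. The WT value turned to 0.0278 with Xist as a covariate and to 0.00403 with the atrial score. Xist was high in all WT Ang/PE hearts and low in most WT saline hearts, so sex and treatment can hardly be told apart there. The heart at 83.1 CPM, saline replicate 4 labelled MCT1KO, also had the highest atrial sum (4972 CPM) and fat sum (1461 CPM) and the lowest Myl2, the ventricular light chain (839 CPM against 3489 to 5647 CPM in the other 24 hearts). Their part in its Npr1 and Npr3 values was not tested.

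Npr2, the receptor of C-type peptide, rose in WT hearts with a saline pump. Without a pump it was 75.2, 61.2, 63.6 and 65.5 CPM, and with saline it ran from 75.4 CPM through a median of 79.5 CPM to 89.7 CPM, so the lowest saline heart stood just above the highest heart without a pump. The group means were 66.4 ± 6.13 (SD, n = 4) and 80.7 ± 5.67 (n = 6) CPM, a log2 difference of 0.28 with a standard error of 0.0709 (edgeR adjusted p = 0.0229), or 1.22-fold. The call was lost with the replicate block (0.28, adjusted p = 0.0616), with Xist as a covariate (adjusted p = 0.0614), without the filter on low counts (adjusted p = 0.09) and with the atrial score as a covariate (0.21, adjusted p = 0.397), all by edgeR. It was also lost without WT no-pump replicate 2, 3 or 4 or WT saline replicate 3. In hearts labelled MCT1KO the same step gave 0.05 (edgeR adjusted p = 0.869), from 64.3, 76.2 and 73.6 CPM without a pump to 78.2, 75.2, 67.6 and 74.3 CPM with saline, and the interaction was -0.23 (edgeR adjusted p = 0.277). Under Ang/PE Npr2 was 73.5, 72.8 and 66.8 CPM in WT, all below the WT saline hearts (log2 difference -0.18, edgeR adjusted p = 0.201), and 70.7 to 78.4 CPM in hearts labelled MCT1KO.

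Npr3, the clearance receptor, was 38.0, 39.0, 50.2 and 44.8 CPM in WT hearts without a pump and 35.0, 26.5 and 28.2 CPM in those labelled MCT1KO, which all lay lower (log2 difference -0.52, standard error 0.404, edgeR adjusted p = 0.643). With saline it ran from 26.2 CPM through a median of 48.6 CPM to 72.3 CPM in WT and was 50.5, 59.0, 39.1 and 154.5 CPM in hearts labelled MCT1KO. All 4 of the latter stood above the 3 of that label without a pump. That step gave a log2 difference of 1.34 with a standard error of 0.413 (edgeR adjusted p = 0.20), and 0.18 in WT (edgeR adjusted p = 0.797), with an interaction of 1.162 (edgeR adjusted p = 0.265). Without saline replicate 4 labelled MCT1KO the step was 0.73 (edgeR adjusted p = 0.686) and the interaction 0.55, without saline replicate 3 the step was 1.56 (edgeR adjusted p = 0.04), and with the atrial score as a covariate the step was 0.19. Under Ang/PE it was 41.3, 33.1 and 32.2 CPM in WT and 25.8, 43.5, 26.1, 46.9 and 48.5 CPM in hearts labelled MCT1KO. Against saline that was -0.45 in WT (edgeR adjusted p = 0.538) and -0.99 with a standard error of 0.349 in hearts labelled MCT1KO (edgeR adjusted p = 0.11). The last value ran from -1.21 to -0.38 (without saline replicate 4) when single hearts were left out, and turned to 0.13 with the atrial score as a covariate.

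The ratio of Npr3 to Npr1 counts sets the clearance receptor against the signalling receptor of the same peptides. It was 1.35, 1.25, 1.71 and 1.19 in WT hearts and 1.05, 0.818 and 0.939 in hearts labelled MCT1KO without a pump, with no overlap (log2 difference -0.55, exact two-sided permutation p = 0.0571, the smallest for 3 against 4, adjusted 0.257). With saline it was 0.725 to 1.91 in WT and 1.35, 2.17, 1.22 and 1.86 in hearts labelled MCT1KO, the latter all above those without a pump (0.79, exact permutation p = 0.0571, adjusted 0.257). With Ang/PE it was 1.41, 1.27 and 1.14 in WT and 0.993, 1.49, 0.87, 1.75 and 1.68 in hearts labelled MCT1KO. In saline replicate 4 labelled MCT1KO, the heart with the highest level of both receptors, the ratio was within the range of the WT saline hearts.

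**Figure D4:**
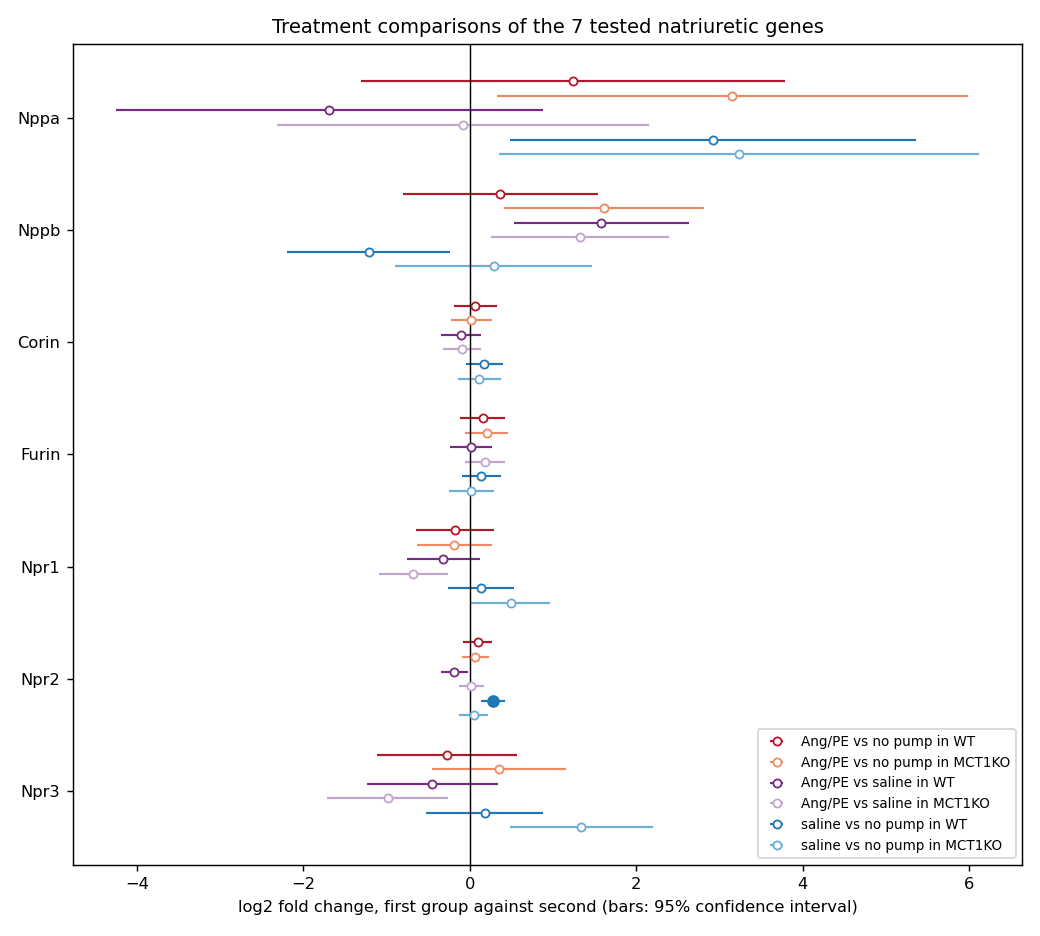
Log2 fold change (first group against second) of the 7 tested genes in the 6 treatment comparisons, with bars for the 95% confidence interval; a filled point marks an adjusted p below 0.05. Only Npr2 in saline against no pump in WT is filled, at 0.28, while the intervals of Nppa span several log2 units and those of Corin, Furin and Npr2 stay within 0.5 of 0.

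Levels were compared between genes as CPM per kilobase of merged exon, averaged over the 25 hearts. The order was Nppa at 944 (23.6 to 5950 over the hearts), Nppb at 353 (58.0 to 1100), Corin at 58.0 (41.6 to 74.6), Furin at 17.8 (14 to 24.5), Npr2 at 15.8 (13.1 to 19.2), Npr1 at 6.98 (5.43 to 17.4), Npr3 at 4.92 (2.75 to 16.5) and Nppc at 0.023. Most neighbours in this order overlapped in range over the hearts, as Nppa with Nppb, Nppb with Corin, Furin with Npr2, Npr2 with Npr1 and Npr1 with Npr3, and in 2 hearts, 1 of them the heart with Nppa at 23.6, Nppa lay below Corin. Corin lay above Furin and Npr2 in every heart. All 3 receptors lay below the 2 hormone genes in every heart.

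The spread between hearts of the same group was measured as the pooled SD of log2 CPM. It was 1.84 for Nppa, above 99.6% of the tested genes, and 0.775 for Nppb, above 93.2%. Npr3 followed at 0.532 (80.8%) and Npr1 at 0.301 (56.4%), beside a median of 0.259 over all tested genes. Furin (0.174, 29.5%), Corin (0.16, 25.0%) and Npr2 (0.0977, 3.65%) lay below that median. Among genes of similar level the percentiles were 100 for Nppa, 99.6 for Nppb, 97.8 for Npr3, 88.8 for Npr1, 54.7 for Furin, 31.4 for Corin and 11.6 for Npr2. The hormone genes were thus the least repeatable members, and Npr2, for which a 1.22-fold difference was called, was the most repeatable.

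The genes most like each member over the 25 hearts were the 5 of highest Spearman correlation among 11537 candidates; the points share libraries and the 6 groups, and each value is a description. For Nppa they were Pam (Spearman correlation 0.958), Kif1a (0.921), Tmem51 (0.906), Dkk3 (0.904) and Pdk3 (0.903). Pam encodes the enzyme that amidates peptide hormones and is a major membrane protein of atrial secretory granules, and Dkk3 was also on the atrial list. Within groups, after subtraction of group means, the Pearson r of Nppa with Pam was 0.845. Pam was 556 to 708 CPM in WT hearts without a pump, 868 to 1489 CPM in Ang/PE hearts labelled MCT1KO, where the heart highest in Nppa was also highest in Pam, and 4159 CPM in saline replicate 4 of that label.

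For Nppb the most alike were Tnfrsf12a (Spearman correlation 0.936, within-group r 0.849), Tlr4 (0.932), Tubb2a (0.882), Tuba1c (0.881) and Abra (0.868). Tnfrsf12a encodes the receptor of the cytokine TWEAK, Tlr4 a receptor of innate immunity, and Tubb2a and Tuba1c are tubulins. The WT Ang/PE heart at 855 CPM of Nppb held 155.1 CPM of Tnfrsf12a, where the other 2 of its group held 23.8 and 32.3 CPM, and its Abra was 419.8 CPM beside 36.1 and 37.7 CPM. None of the 5 genes like Nppb was among the 5 like Nppa.

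For Npr3 the most alike were H19 (Spearman correlation 0.952, within-group r 0.941), an imprinted long noncoding RNA, Plvap (0.897), a protein of endothelial diaphragms, Plagl1 (0.887), an imprinted zinc finger gene, Smoc1 (0.876) and Bmx (0.874), a kinase of endothelium. In saline replicate 4 labelled MCT1KO H19 was 79.7 CPM and Plvap 45.8 CPM, the highest of the 25 hearts, as for Npr3. For Npr1 they were Lurap1l (0.864), Nr2f1 (0.802), Clcn1 (0.799), Kcna2 (0.773) and Tnfsf10 (0.761). For Npr2 they were Pex26 (0.875), Ints1 (0.875), Gtf3c4 (0.871), Ppp6r1 (0.87) and Ercc2 (0.865), which serve peroxisomes, transcription, protein dephosphorylation and DNA repair. Corin was most like Jmjd4 (0.752), Tor1b (0.723), Ankrd63 (0.70), Cldn12 (0.692) and Etnk1 (0.682), and Furin most like Preb (0.80), Git1 (0.786), Slc35e1 (0.782), Hspa9 (0.765) and Tle4 (0.763). Among the members themselves the highest Spearman correlation was that of Nppa with Npr3 (0.596, within-group r 0.702) and the lowest that of Nppb with Npr1 (-0.612, within-group r -0.383), while Corin with Furin reached 0.461.

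**Figure D5:**
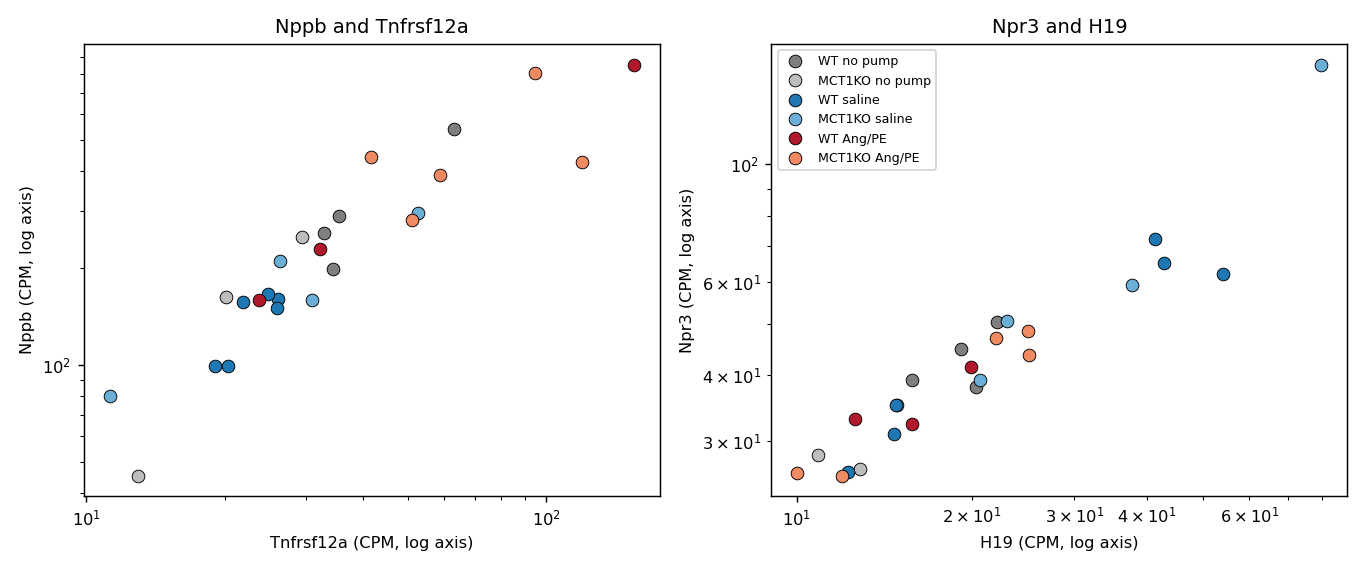
Nppb against Tnfrsf12a (left) and Npr3 against H19 (right), in CPM on log axes, 1 point per heart, coloured by group. Both pairs fall along a band over all groups, with the WT Ang/PE heart at 855 CPM of Nppb and 155.1 CPM of Tnfrsf12a at the upper end on the left and the saline heart at 154.5 CPM of Npr3 and 79.7 CPM of H19 on the right.

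Around the receptors, 30 genes of peptide degradation and cGMP signalling were followed, of which 27 could be tested. By edgeR 2 were called in the 12 comparisons, both lower in Ang/PE than in saline among hearts labelled MCT1KO, where 4.46% of all genes were called. In that comparison 9 were unadjusted beside 20.4% of all genes, and DESeq2 called 5 beside 1200 of all genes. Dpp4, a peptidase that trims B-type peptide, fell from 8.18 ± 3.07 (SD, n = 4) to 3.65 ± 1.29 (n = 5) CPM, a log2 difference of -1.157 with a standard error of 0.327 (edgeR adjusted p = 0.0442). Irag1, a target of the cGMP-dependent kinase at the calcium store, fell from 40.5 ± 28.9 to 18.5 ± 4.404 CPM, -1.13 with a standard error of 0.279 (edgeR adjusted p = 0.025). Without saline replicate 4 labelled MCT1KO the differences were -0.87 (edgeR adjusted p = 0.246) and -0.50 (edgeR adjusted p = 0.172), and the Irag1 values of the saline group ran from 23.4 to 83.7 CPM. The 2 calls became 0 there, without Ang/PE replicate 5 of that label, without the low-count filter, with the atrial score and with only the groups compared, and 1 with the replicate block or the Xist covariate. Dpp4 kept its call in 12 and Irag1 in 22 of 25 fits that left out 1 heart. The list's median difference was -0.09, beside -0.01 over all tested genes. In the other 11 comparisons edgeR called 0 of 27, beside 0% to 6.61% of all genes. There 0 to 8 were unadjusted, beside 5.43% to 24.3% of all genes, and DESeq2 called 0, beside 2 to 1956 of all genes.

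Of 20 cardiac transcription factors, 19 were tested. In saline against no pump in WT, 4 rose, with 10 unadjusted and 5 by DESeq2. Of all genes 6.61% were called, 24.3% were unadjusted and 1956 were called by DESeq2. These were Gata4 (log2 difference 0.57, edgeR adjusted p = 0.0454), Nkx2-5 (0.52, edgeR adjusted p = 0.032), Tbx20 (0.43, edgeR adjusted p = 0.0362) and Mef2d (0.43, edgeR adjusted p = 0.029), named after their values were seen. All 4 lost the call, at differences of 0.47, 0.41, 0.38 and 0.38, without WT no-pump replicate 3. They were 0 of 19 as well without WT no-pump replicate 2 or 4, without WT saline replicate 3, and with the replicate block, the Xist covariate or the atrial score. The number called rose to 8 without WT no-pump replicate 1 and to 5 with only the groups compared. In Ang/PE against saline among hearts labelled MCT1KO, Tead1 rose (0.49, edgeR adjusted p = 0.0212) and Tbx5, also on the atrial list, fell (-1.53, edgeR adjusted p = 0.0296), both named after their values were seen. That is 2 of 19 where 4.46% of all genes were called, with 5 unadjusted beside 20.4% of all genes, and 2 by DESeq2 beside 1200. Both calls were lost without saline replicate 4 labelled MCT1KO, where the differences were 0.43 and -0.77, without Ang/PE replicate 5 of that label, with the atrial score and with only the groups compared. In the other 10 comparisons edgeR called 0 of 19, beside 0% to 0.503% of all genes. There 0 to 8 were unadjusted, beside 5.43% to 19.1% of all genes, and DESeq2 called at most 3, beside 2 to 649 of all genes.

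A further 12 markers of cardiac hypertrophy, with neither peptide among them, give the setting of the peptide values. In Ang/PE against saline among hearts labelled MCT1KO, 4 of 12 rose and 0 fell, with 8 unadjusted by edgeR and 4 by DESeq2. Of all genes 4.46% were called, 20.4% were unadjusted and 1200 were called by DESeq2. They were Myh7, the fetal myosin heavy chain (log2 difference 2.37, edgeR adjusted p = 0.0268), Rcan1, a calcineurin target (2.00, edgeR adjusted p = 0.0141), Xirp2 (1.58, edgeR adjusted p = 0.0123) and Postn, a matrix protein of activated fibroblasts (2.02, edgeR adjusted p = 0.0498), named after their values were seen. Without saline replicate 4 labelled MCT1KO 0 of 12 were called, at differences of 2.12, 1.83, 1.38 and 2.33. The calls also became 0 with the atrial score or only the groups compared and 2 with the replicate block, without the low-count filter, or without Ang/PE replicate 2 or 5 of that label. Postn kept its call in 3 of 25 fits that left out 1 heart and in 3 of 9 other alternatives. Over the 12 genes the median difference was 1.35 in this comparison and 0.69 for the same step in WT. In WT 0 were called by edgeR (0.017% of all genes), 5 had an unadjusted p below 0.05 (19.1% of all genes) and DESeq2 called 2 (649 of all genes). For Ang/PE against no pump the medians were 1.33 in hearts labelled MCT1KO, with 12 of 12 differences above 0, and 1.01 in WT, with 11 of 12 above 0. The list holds the adult myosin heavy chain Myh6 as well as the fetal Myh7. A difference above 0 was counted alike for both, so these counts are not a score of hypertrophy. For these steps against no pump edgeR called 0 in either genotype, beside 0.503% of all genes under the MCT1KO label and 0% in WT. Unadjusted there were 8 and 6, beside 13.1% and 9.02% of all genes. DESeq2 called 6 in hearts labelled MCT1KO and 0 in WT, beside 395 and 35 of all genes. The median over all tested genes was within 0.05 of 0 in each of these comparisons. The log2 differences of Nppb, 1.62 and 0.37 in the Ang/PE steps against no pump, and of Nppa, 3.16 and 1.24, stand beside these medians, again without a call.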

How the data were processed

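RNA of the 25 mouse hearts was depleted of ribosomal RNA and sequenced from stranded libraries, per the labels' protocols. The authors deposited 1 table of raw read counts per gene. The submitters' processing notes name cutadapt 1.16, STAR 2.7.9a, featureCounts 1.6.3, DESeq2 1.42.1 and the build GRCm39 (mm39), and whether counting used strand is not given in the sources used here. Names, merged exon lengths and exon overlaps came from GENCODE M21 and promoters from RefSeq, both on GRCm38, so coordinates here are of GRCm38.p6 and not of the files' build. Depth was 12216704 to 24880683 counts.

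Genes were filtered by group (filterByExpr), scaled by TMM and fitted in 1 robust quasi-likelihood model of 6 groups with edgeR 4.0.16 in R 4.3.3, with 19 residual degrees of freedom. P-values were two-sided and adjusted within each of the 12 comparisons. CPM values use the TMM-scaled library sizes. Likeness was computed on log2 CPM (prior count 0.5). The 2 count ratios were tested by exact permutation of hearts (scipy 1.17.1). Standard errors were derived from the F statistic.

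The members and lists were chosen with earlier results of these data known. The text names all 8 members in every comparison, genes called in the cGMP list, the 5 most alike genes of each member (predicted models left out, mean log2 CPM above 1) and Slc16a1; all other genes, such as the atrial and fat markers, Xist, Myl2, the transcription factors and the hypertrophy markers, are named after their values were seen. The alternatives were RLE scaling, DESeq2 1.42.0, no low-count filter, a fit that is not robust, a table without mitochondrially encoded genes, Xist or the atrial score (mean log2 CPM of Myl4, Myl7 and Sln) as a covariate, the replicate block, a fit of only the groups compared, and leaving out each heart. A fit without saline hearts was added after seeing the data. The edgeR script was tested on simulated data.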

Additional observations from a re-analysis of the deposited data

How the results depend on the processing

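Of the 84 log2 differences (7 genes, 12 comparisons), 77 were called in no setting, and 39 changed sign in some setting; the following lists sign changes by more than 1 standard error. The cause was not tested. In saline against no pump in WT the 1 call (Npr2) became 0 without the low-count filter, with the Xist or atrial covariate and with the replicate block. It became 2 with only the groups compared (Nppb and Npr2) or DESeq2 (Nppa and Npr2), and leaving out single hearts gave 0 to 1. In Ang/PE against saline, 1 member was called in WT with only the groups compared (Npr1), and in hearts labelled MCT1KO 1 in the non-robust fit, 2 with DESeq2 and 0 to 2 without single hearts (1 without saline replicate 1 or 2, and 2 without saline replicate 3). In saline against no pump in hearts labelled MCT1KO, DESeq2 called 1 and leave-one-out fits 0 to 1 (Npr3, 1.56, edgeR adjusted p = 0.04, without saline replicate 3). The labels do not say whether hearts of the same replicate number have anything in common. The 30 same-numbered pairs had a mean correlation of -0.00663 (-0.211 to 0.384), which does not show that they share nothing. Beyond Npr2 the replicate block changed no member's call. Of the list calls it changed the factors from 4 to 0 for saline against no pump in WT. For Ang/PE against saline under the MCT1KO label it changed hypertrophy markers from 4 to 2, factors from 2 to 1 and the cGMP list from 2 to 1. With the saline hearts left out, 0 members were called in the 5 comparisons that remain.

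With the atrial covariate, values reversed for Ang/PE against saline in WT (Nppa 2.35, Npr1 0.00403, Npr3 0.59) and in hearts labelled MCT1KO (Nppa 4.31, Npr3 0.13), and for saline against no pump in WT (Nppa -1.30, Npr1 -0.19, Npr3 -0.90) and in hearts labelled MCT1KO (Nppa -1.70). None of these reversed values was called. With the Xist covariate they reversed for Npr1 in genotype without pump (-0.23), Ang/PE against saline in WT (0.0278) and Ang/PE against no pump in hearts labelled MCT1KO (0.16), and for Nppb in saline against no pump in that label (-0.28). Without single hearts, the genotype difference of Nppa without a pump ran from -1.11 (without replicate 3 labelled MCT1KO) to 1.58, and that of Npr1 with saline from -0.10 to 0.56. Nppb in Ang/PE against no pump in WT ran from -0.72 (without Ang/PE replicate 3) to 0.75. The interaction for Ang/PE against saline ran from -0.64 to 0.82 for Nppb, -0.55 to 0.11 for Npr1 and -0.76 to 0.0674 for Npr3, and that for the saline pump from -0.12 to 0.54 for Npr1; without saline replicate 4 labelled MCT1KO the 3 Npr values turned. Over all genes, the Ang/PE against saline calls under the MCT1KO label (788) ran from 1 to 1200 over the other settings and from 39 to 1541 without single hearts, and for saline against no pump in WT (1168) from 0 to 2287 and from 60 to 2234. Of 36 tests for a single heart standing apart within a group, 0 were positive, where chance gives 1.8. Groups of 3 hearts, WT with Ang/PE and the MCT1KO label without a pump, were not tested. In the other groups so few hearts let the test flag only a very isolated value. The 0 therefore does not show that no heart stood apart. The depth limits Nppc, with at most 1 count in a heart.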

Other observations

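In 3 hearts the members gave an unusual profile. The heart without a pump labelled MCT1KO that had the highest Nppa of its group (462 CPM, replicate 3) had 162 CPM of Nppb, between the other 2 (249.8 and 45.3 CPM), and its Myl7 and Sln were listed at 0. The Ang/PE heart labelled MCT1KO with 5144 CPM of Nppa (replicate 2) also had the second-ranked Nppb of the series, 805 CPM, the lowest Corin, 225 CPM, and 43.5 CPM of Npr3. The WT Ang/PE heart with the highest Nppb of the series, 855 CPM (replicate 3), had 315 CPM of Nppa and the lowest summed atrial list of the 25 hearts, 89.8 CPM. Chosen after seeing these values, the 3 hearts are a description and were not tested.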
